A study of Homo sapiens with 4 samples.

Results

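The clustered histone genes encode the histones that package newly made DNA, and they are described here in cells labelled NB4 after the BET degrader dBET1 and after its solvent. They were chosen by symbol: the core histone genes named H2AC, H2BC, H3C or H4C with a number, and the linker histone genes H1-1 to H1-6. The rule finds 69 genes, of which 65 have a row in the table of 64252 genes, while H2AC18, H2AC19, H3C2 and H3C3 were not analysed here. By class they are 6 H1, 17 H2A, 18 H2B, 13 H3 and 15 H4 genes. On hg38, 55 lie on chromosome 6, 11 in band 1q21 and 2 (H2AC25 and H2BC26) in band 1q42 of chromosome 1, and 1 (H4C16) on chromosome 12.

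NB4 is a human promyelocytic leukemia cell line, and dBET1 joins a ligand of BET bromodomains to a ligand of the ubiquitin ligase adaptor CRBN, so that the BET proteins are degraded. RNA was sequenced from 2 libraries of cells kept for 24 h in 8 μM dBET1 and from 2 libraries of cells kept for 24 h in DMSO, and both groups carry the one label for the line. The libraries are numbered as replicates, but the labels do not say that they came from separate cultures and the study's general statement on repeated experiments does not name them, so the spread between them may be technical. The question of the comparison is which genes change when BET proteins are degraded.

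Cells make most of their histone protein during S phase, when DNA is copied. The genes for it are short, have no introns in their usual form, lie close together and are transcribed in nuclear bodies built around the protein NPAT. Their messages end in a conserved stem-loop in place of a poly(A) tail. The protein SLBP binds the stem-loop, the U7 particle with LSM10 and LSM11 guides the cut behind it, and the nuclease ERI1 takes part in its decay when DNA synthesis stops. Histones H2A, H2B, H3 and H4 form the nucleosome core, and H1 binds the DNA between cores.

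The stem-loop is the feature by which these messages are recognised, so the forms carried by leading members are shown, each in message sense with the 16 bases of the stem-loop in capitals and 5 bases of hg38 on each side. It was found behind the stop codon of 69 of 69 members, at a distance of 23 to 68 bases (median 36), in 10 forms. The form of H3C10 is shared by 40 members of the classes H1, H2A, H2B and H3 and the form of H2BC12 by 9. The form of H4C8 is carried by 10 H4 genes and that of H4C9 by 4. H2AC11 alone carries the form printed last. The stretches lie at chr6:27810511-27810536 (plus strand), chr6:27146361-27146386 (minus strand), chr6:26285126-26285151 (minus strand), chr6:27139649-27139674 (plus strand) and chr6:27133510-27133535 (plus strand), in the order printed.
H3C10: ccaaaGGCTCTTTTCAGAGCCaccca
H2BC12: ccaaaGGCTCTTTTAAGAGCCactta
H4C8: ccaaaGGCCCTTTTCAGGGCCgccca
H4C9: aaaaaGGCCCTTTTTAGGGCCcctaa
H2AC11: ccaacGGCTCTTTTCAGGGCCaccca

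The histone genes were higher in the dBET1 libraries as a family, and no member was lower. Their levels were summed in counts per 1000000 counts of the library (CPM) after scaling with TMM factors, so that reads divided between near-identical copies stay in the sum. The sum was 1177 and 1212 CPM in DMSO and 2690 and 2635 CPM in dBET1, a 2.23-fold higher mean. With H3C15 and H4C14 left out, each of which has a near-identical copy among the members, it was 2.14-fold. In raw counts the family held 0.111% of each DMSO library and 0.288% and 0.284% of the dBET1 libraries, out of totals of 28019956 to 34685645 counts. In bulk RNA, more cells that carry a message and more message per cell cannot be told apart.

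Of the 65 genes, 55 passed edgeR's filter on low counts and were compared. At an adjusted p under 0.05 and a log2 fold change above 1, 45 of them were higher, against 16.9% of all 17971 genes tested, and 0 were lower, against 8.54%. Without the limit on the fold change, 52 were higher, against 28% of all genes, and 0 lower, against 27.6%. Both dBET1 libraries lay above both DMSO libraries in 55 of the 55, against 41.9% of all genes. The family was selected on this same comparison, so its counts, folds and calls are given as a description and carry no test. The median log2 fold change was 2.25 over the compared members and 0.048 over all genes. Among the 53 compared members with a DMSO count, 9 were less than 2-fold higher, 13 were 2-fold to 4-fold, 17 were 4-fold to 8-fold and 14 were more than 8-fold higher. Nearest to the fold limit were H2AC25, called at a log2 fold change of 1.16, and H1-2, not called at 0.95, while H2BC9 passed the fold limit, at 1.40, and not the limit on p.

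**Figure D1:**
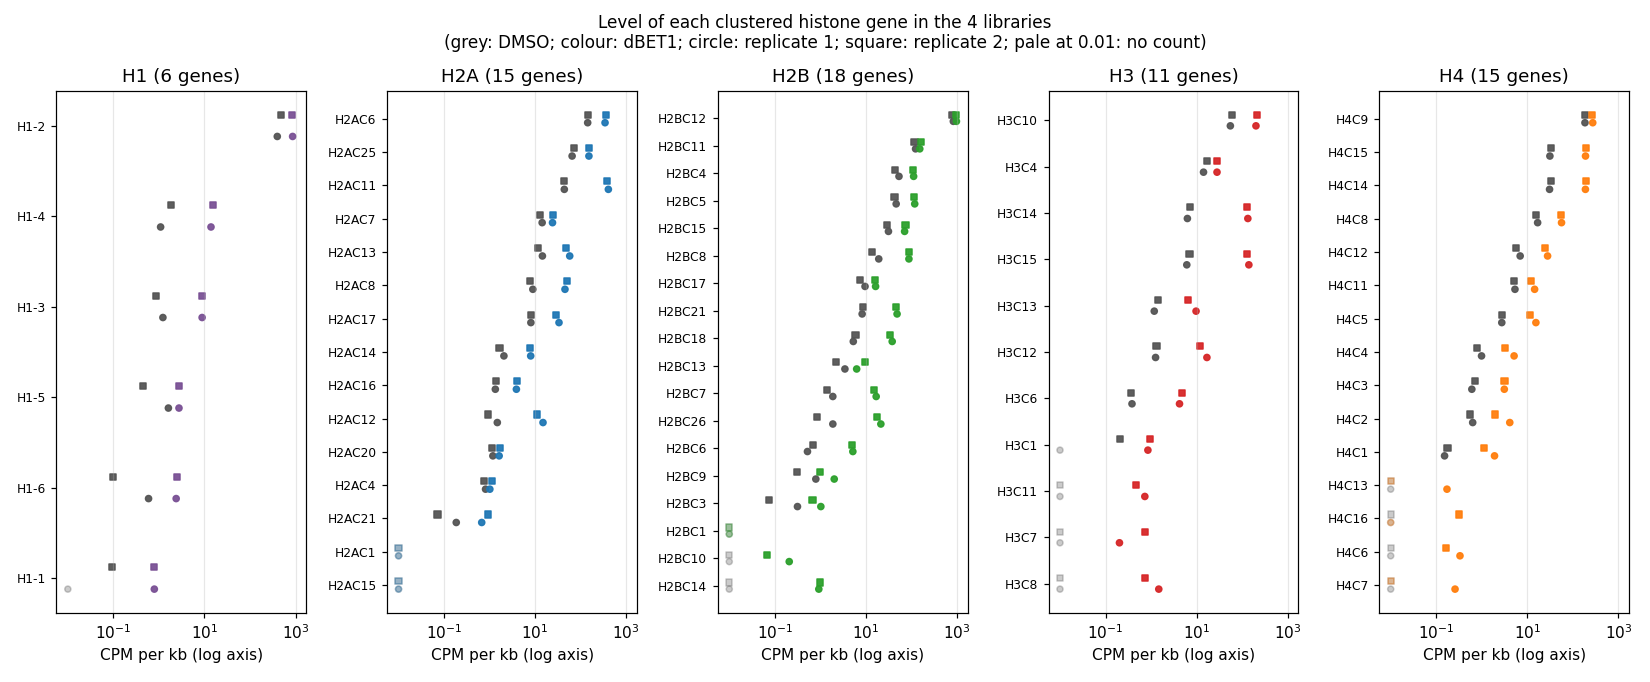
Level of each of the 65 genes in the 4 libraries, in CPM per kb of transcript on a log axis, by class and in order of the mean DMSO level where not 0 (grey: DMSO, colour: dBET1, circle: replicate 1, square: replicate 2). The coloured points stand to the right of the grey points in 55 of the 55 compared genes, against 41.9% of all genes tested. Among the genes too low to compare they overlap in 6, of which H2AC1, H2AC15 and H2BC1 had no count in any library. The others too low to compare had no DMSO count and few counts in dBET1.

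The family was led by few genes. H2BC12 had 13460 and 11063 counts in DMSO and 14472 and 14363 in dBET1, and was the highest of all members per length in DMSO, at 814 CPM per kb of the main GENCODE transcript. The gene models behind the deposited counts may differ from GENCODE, so levels per length and their order are approximate. Its log2 fold change of 0.24 ± 0.07 (SE) was the smallest of the compared members. H1-2, second at 440 CPM per kb, had 9491 and 9890 counts in DMSO and 18959 and 18746 in dBET1. Both genes together made up 59.7% and 61.5% of the family's CPM in DMSO and 41.4% and 41.2% in dBET1. These shares do not depend on how the libraries were scaled. Without H1-2 and H2BC12, the sum of the other genes was 474 and 467 CPM in DMSO and 1576 and 1550 CPM in dBET1, 3.32-fold higher.

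The classes did not change by the same amount in sum, and several sums rest mostly on a single gene. In mean DMSO level, H1-2 held 321 of the 324 CPM of H1. H2BC12 held 403 of the 558 CPM of H2B, and H4C9 74.1 of the 113 CPM of H4. By median log2 fold change the order differed from that of the sums, with H3 at 3.46, H1 at 2.91, H4 at 2.25, H2A at 1.92 and H2B at 1.75. H3 was 6.09-fold higher in sum, from 41.8 and 46.0 CPM in DMSO to 271 and 263 CPM in dBET1, and its share of the family went from 3.55% and 3.80% to 10.1% and 9.98%. With H3C15 and H4C14 left out, H3 was 4.87-fold higher and its share 3.32% and 3.55%, then 7.81% and 7.87%. H2A was 3.51-fold higher, from 155 and 156 CPM to 549 and 542 CPM, with a share that went from 13.1% and 12.9% to 20.4% and 20.6%. In mean level, H2AC11 held 21.2 of the 155 CPM of H2A in DMSO and 194 of the 546 CPM in dBET1. H4, from 112 and 114 CPM to 311 and 305 CPM, was 2.73-fold higher. With H4C14 left out, H4 was 2.32-fold higher, from 99.5 and 101 CPM to 236 and 228 CPM. The linker class H1, from 294 and 355 CPM to 654 and 638 CPM, was 1.99-fold higher and held 24.2% to 29.2% of the family in the 4 libraries. H2B, the class of H2BC12, was 1.61-fold higher in sum, from 575 and 542 CPM to 905 and 887 CPM, and its share went from 48.8% and 44.7% to 33.6% and 33.7%. In each class the dBET1 libraries lay above both DMSO libraries.

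**Figure D2:**
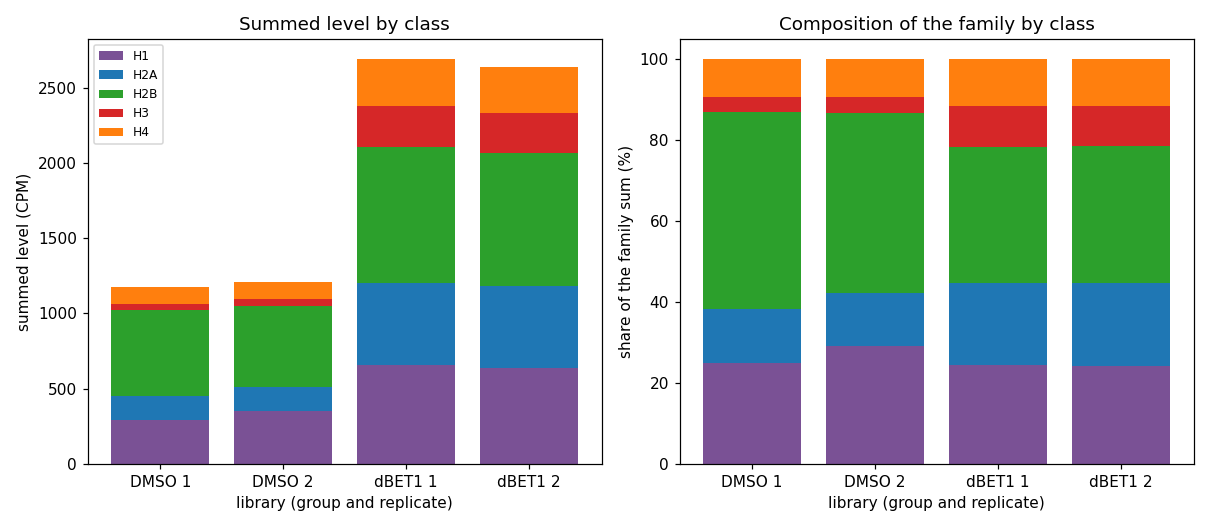
Summed CPM of each histone class in each library (left) and each class as a percentage of the family sum (right), as stacked bars. The whole bars stand at 1177 and 1212 CPM for DMSO and at 2690 and 2635 CPM for dBET1, and the H2B part of the right bars is smaller and the H3 and H2A parts are larger in dBET1.

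Of the 6 H1 genes, whose products bind linker DNA and the nucleosome, 5 were called higher, and their median log2 fold change was 2.91. The abundant H1-2 had a log2 fold change of 0.95 ± 0.10 (SE), below the limit of the call. It was above that limit, at 1.07, without DMSO replicate 2, and at 1.17 with libraries scaled by total counts. H1-4 had 28 and 40 counts in DMSO and 329 and 377 in dBET1, a log2 fold change of 3.36 ± 0.28 (SE). H1-3 had 31 and 19 counts in DMSO and 207 and 208 in dBET1, with a log2 fold change of 3.06 ± 0.28 (SE). Each of these genes had dBET1 libraries clear of its DMSO libraries.

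The other H1 genes were low. H1-5 had 42 and 10 counts in DMSO and 66 and 67 in dBET1, so that its DMSO libraries differed from each other by more than the nearer one differed from dBET1. Its log2 fold change of 1.39 was 0.74 without DMSO replicate 2 and 2.59 without DMSO replicate 1, and its call was lost without DMSO replicate 2 and without either dBET1 replicate. H1-6, the testis form, had 14 and 2 counts in DMSO and 52 and 56 in dBET1, and its log2 fold change of 2.77 was 4.54 without DMSO replicate 1 and 2.01 without DMSO replicate 2. H1-1 had 0 and 2 counts in DMSO and 18 and 18 in dBET1, a ratio of 18.1 with a 95% counting interval of 4.65 to 155. Such intervals cover counting error only.

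The 250 bases before the start of H1-2 and H1-4 are shown because their levels and changes stand far apart while both promoters hold the H1 box and CCAAT, with TATAAA in that of H1-4 alone. They are RefSeq's promoters on GRCh38.p14, written along the gene, at chr6:26056471-26056720 (minus strand) and chr6:26156079-26156328 (plus strand). Capitals mark AAACACA (the H1 box), CCAAT and TATAAA, each on either strand.
H1-2: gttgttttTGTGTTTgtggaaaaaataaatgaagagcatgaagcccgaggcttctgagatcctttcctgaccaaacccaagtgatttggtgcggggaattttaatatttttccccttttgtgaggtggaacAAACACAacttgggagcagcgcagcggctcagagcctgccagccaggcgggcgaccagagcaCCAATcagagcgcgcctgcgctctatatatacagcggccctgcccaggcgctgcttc
H1-4: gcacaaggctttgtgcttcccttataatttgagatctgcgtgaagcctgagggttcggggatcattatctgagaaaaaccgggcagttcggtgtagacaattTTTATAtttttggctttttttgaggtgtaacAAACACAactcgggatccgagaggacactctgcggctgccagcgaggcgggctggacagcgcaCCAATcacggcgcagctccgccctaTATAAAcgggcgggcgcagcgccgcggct

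Over the 64 members with a RefSeq promoter of 300 bases (250 before and 50 after the start), AAACACA stood in 9, or 14.1%, against 5.64% of 35116 promoters, and in 6 of 6 H1 genes. TATAAA stood in 42, or 65.6%, against 11.5% of all promoters. CCAAT was held by 54, or 84.4%, against 34.6%, with only 3 of 13 H4 promoters among them. The octamer ATTTGCAT, a site bound by POU factors such as the product of POU2F1, was held by 26, or 40.6%, against 1.77%, among them 14 of 18 H2B and 11 of 16 H2A promoters. TTTGGCGC was held by 0 of 64, against 0.652%. All were searched on both strands, and the motifs were counted without regard to overlap with one another. A match is a description of letters and not of a bound site. By median log2 fold change, compared members with the octamer stood at 1.92 (23 genes) and those without it at 2.30 (28 genes). The classes that hold most octamers, H2A and H2B, also had the lowest class medians, 1.92 and 1.75. The part of class in this split was not tested. With TATAAA the median was 2.21 (33 genes) and without it 1.65 (18 genes). For AAACACA, which all 6 H1 genes hold, it was 3.06 (9 genes) with the motif and 2.04 (42 genes) without. Besides the H1 genes, H2AC20, H3C14 and H3C15 hold it, with log2 fold changes of 0.52, 4.29 and 4.36. The counts of H3C14 and H3C15 cannot be told apart, so the 9 genes are not all separate measurements. For CCAAT the median was 2.03 (43 genes) with the motif and 2.24 (8 genes) without.

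Of the 15 H2A genes in the table, 13 were compared and 10 called higher, with a median log2 fold change of 1.92. H2AC6 was the highest per length in DMSO, at 144 CPM per kb, with 2412 and 2122 counts in DMSO and 5336 and 5707 in dBET1. Its log2 fold change was 1.29 ± 0.08 (SE). H2AC25 on 1q42 had 1078 and 1024 counts in DMSO and 2321 and 2377 in dBET1, with a log2 fold change of 1.16 ± 0.09 (SE). Both thus changed by less than the median of their class.

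H2AC11 stood out in size and in level. It had 703 and 586 counts in DMSO and 5997 and 5752 in dBET1, a log2 fold change of 3.19 ± 0.09 (SE), and at 394 CPM per kb in dBET1 it was above H2AC6 at 351 CPM per kb, although it had been below H2AC6 in DMSO. The largest log2 fold change of the class was 3.41 ± 0.33 (SE) in H2AC12, from 22 and 12 counts to 204 and 155. The smallest was 0.45 ± 0.45 (SE) in H2AC4, from 14 and 11 counts to 16 and 18, and H2AC20 (log2 fold change 0.52) and H2AC7 (0.86) were not called either. H2AC21 had 3 and 1 counts in DMSO and 10 and 14 in dBET1, and its call was lost without either DMSO replicate and without dBET1 replicate 1, with log2 fold changes of 2.03 to 3.31 without a library. H2AC1, a testis gene, and H2AC15 had 0 counts in the 4 libraries.

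From the translated coding sequences, H2AC11, H2AC13, H2AC15, H2AC16 and H2AC17 encode one and the same protein. Those 5 genes summed to 33.2 and 31.3 CPM in DMSO and to 246 and 228 CPM in dBET1, 7.35-fold higher. H2AC11 held most of it, with 21.2 of a mean of 32.3 CPM in DMSO and 194 of 237 CPM in dBET1. The genes that differ in sequence but not in product so differed widely in level, since within this group H2AC11 had 43.0 CPM per kb in DMSO and H2AC16 had 1.37.

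Of the 18 H2B genes, 16 were compared and 12 called higher, with a median log2 fold change of 1.75, which was 1.33 without DMSO replicate 2 and 2.33 without DMSO replicate 1. After H2BC12 came H2BC11, with 1934 and 1579 counts in DMSO and 2200 and 2354 in dBET1, a log2 fold change of 0.38 ± 0.08 (SE). H2BC4 followed, with 801 and 574 counts in DMSO and 1544 and 1524 in dBET1 and a log2 fold change of 1.17 ± 0.12 (SE). All of the exon sequence of H2BC4 is shared with an overlapping gene model, so its counts are uncertain. H2BC12 and H2BC11 had the smallest log2 fold changes of all compared members.

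Several other H2B genes changed more, but not every gene of low level did. H2BC21 on 1q21 had 601 and 538 counts in DMSO and 3233 and 3181 in dBET1, a log2 fold change of 2.50 ± 0.09 (SE). H2BC26 on 1q42 had 28 and 11 counts in DMSO and 292 and 247 in dBET1, with a log2 fold change of 3.80 ± 0.35 (SE), the largest of the H2B genes with a DMSO count, and it was 4.47 without DMSO replicate 1. H2BC14 had no DMSO count and 13 and 14 counts in dBET1, which is at least 4.49-fold higher when the DMSO libraries are set at 3 counts each. H2BC10, with 0 and 0 counts in DMSO and 3 and 1 in dBET1, was too low to compare, and H2BC1, a testis gene, had 0 counts in every library.

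H2BC9 (12 and 4 counts in DMSO, 28 and 14 in dBET1) and H2BC17 (146 and 96, then 229 and 231) were not called. H2BC17, at a log2 fold change of 0.94, was called at 1.13 without DMSO replicate 1. H2BC13 (51 and 28 counts, then 85 and 130) lost its call without dBET1 replicate 2, at a log2 fold change of 1.12. H2BC3 (5 and 1, then 15 and 10) lost its call without any one library, with log2 fold changes from 1.38 to 3.37. The remaining H2B genes had log2 fold changes from 1.26 (H2BC15) to 3.24 (H2BC7).

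Many H2A and H2B genes start head to head and share the stretch between their starts. In GENCODE, 12 such pairs have starts 193 to 250 bases apart, with 3 to 6 CCAAT motifs in every stretch and the octamer in 9. Of the pairs, 9 had both members compared and a DMSO count in both. Within these pairs the log2 fold changes differed by a median of 1.98, and by more than 1 in 5, with the H2A gene ahead in 6. H2BC12 and H2AC12 were 0.24 and 3.41, and H2BC11 and H2AC11 were 0.38 and 3.19. In the opposite order stood H2AC20 and H2BC21 (0.52 and 2.50), H2AC7 and H2BC7 (0.86 and 3.24) and H2AC25 and H2BC26 (1.16 and 3.80). Close to each other were H2BC8 and H2AC8 (2.43 and 2.51) and H2BC4 and H2AC6 (1.17 and 1.29). In the 5 pairs that differed by more than 1, the member with the higher DMSO level per length was the less changed one in 4 and the more changed one in 1, H2BC21.

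The stretches of 3 pairs that came apart and 1 that moved together are shown from hg38 on the plus strand, from one start to the other. They lie at chr6:27146856-27147105, chr6:27132796-27133042, chr1:228457874-228458102 and chr6:26216689-26216920. Capitals mark the TATAAA box, the CCAAT box and the octamer ATTTGCAT on either strand, and neighbouring matches can run together.
H2BC12/H2AC12: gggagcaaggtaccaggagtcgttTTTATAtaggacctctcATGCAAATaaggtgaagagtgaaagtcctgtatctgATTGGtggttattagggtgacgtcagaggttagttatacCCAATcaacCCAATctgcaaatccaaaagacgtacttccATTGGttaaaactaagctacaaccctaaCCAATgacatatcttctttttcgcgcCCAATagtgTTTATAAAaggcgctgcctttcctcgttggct
H2BC11/H2AC11: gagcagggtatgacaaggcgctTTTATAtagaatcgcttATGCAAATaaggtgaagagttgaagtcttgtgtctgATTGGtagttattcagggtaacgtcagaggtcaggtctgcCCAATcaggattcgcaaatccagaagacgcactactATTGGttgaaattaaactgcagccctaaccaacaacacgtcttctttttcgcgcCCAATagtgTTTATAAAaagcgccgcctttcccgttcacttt
H2AC25/H2BC26: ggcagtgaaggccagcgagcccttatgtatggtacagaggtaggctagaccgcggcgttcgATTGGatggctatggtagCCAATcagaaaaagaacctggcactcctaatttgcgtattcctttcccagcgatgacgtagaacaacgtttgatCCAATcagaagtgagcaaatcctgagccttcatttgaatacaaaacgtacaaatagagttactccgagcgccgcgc
H2BC8/H2AC8: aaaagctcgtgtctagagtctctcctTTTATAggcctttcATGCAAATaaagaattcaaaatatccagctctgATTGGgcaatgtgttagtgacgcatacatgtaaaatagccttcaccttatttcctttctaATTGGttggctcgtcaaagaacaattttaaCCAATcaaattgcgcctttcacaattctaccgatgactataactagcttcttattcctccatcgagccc

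**Figure D3:**
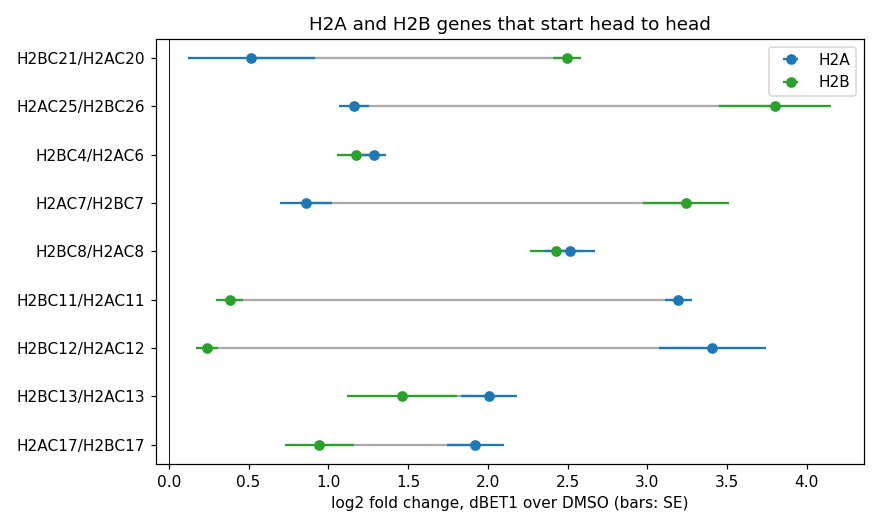
Log2 fold change, dBET1 over DMSO, of the H2A gene (blue) and the H2B gene (green) of 9 pairs that start head to head, with bars for the standard error. The points of H2BC12/H2AC12 lie farthest apart, at 0.24 and 3.41, and those of H2BC8/H2AC8 nearest, at 2.43 and 2.51.

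The H3 genes had the largest median change of the core classes, 3.46 on the log2 scale, or 3.11 with H3C8 set at its lower bound. Of the 11 in the table, 9 were compared and 8 called higher. H3C10 led in DMSO with 56.9 CPM per kb, with 875 and 802 counts in DMSO and 2937 and 3143 in dBET1. Its log2 fold change was 1.86 ± 0.09 (SE). H3C4, with 233 and 240 counts in DMSO and 424 and 436 in dBET1, had the smallest log2 fold change, 0.86 ± 0.17 (SE), and was not called. H3C4 and H2AC7 lie under one overlapping gene model, with which 95.5% and 79.5% of their sequence windows are shared, so that their counts are uncertain.

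The 1q21 genes H3C14 and H3C15 changed most of all members with a DMSO count. H3C14 had 107 and 103 counts in DMSO and 2092 and 2022 in dBET1, with a log2 fold change of 4.29 ± 0.12 (SE). H3C15 had 103 and 102 counts in DMSO and 2186 and 2036 in dBET1, with a log2 fold change of 4.36 ± 0.13 (SE). Their coding sequences are identical over 408 bases and 98.9% and 100% of their windows of 150 bases are shared, so the counts of one cannot be told from those of the other. With H3C13 (18 and 19 counts, then 137 and 91) they encode one protein, while the other 10 H3 genes encode a second.

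By product, the H3C13, H3C14 and H3C15 group summed to 6.99 and 7.97 CPM in DMSO and to 147 and 136 CPM in dBET1, 18.9-fold higher. The group of 10, of which 8 were in the table, summed to 34.8 and 38.0 CPM in DMSO and to 124 and 127 CPM in dBET1, 3.45-fold higher. If reads of the near-identical H3C14 and H3C15 were counted for both, these sums are too high for the smaller group: with H3C15 left out it summed to 3.83 and 4.34 CPM in DMSO and to 74.3 and 69.2 CPM in dBET1, 17.6-fold higher. Which group was the larger in dBET1 thus depends on the counting, and H3C2 and H3C3 are absent from the group of 10.

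Several H3 genes were at or near 0 in DMSO. H3C8 had 0 and 0 counts in DMSO and 22 and 11 in dBET1, at least 5.50-fold higher. H3C11, from 0 and 0 to 11 and 7 counts, was at least 3.0-fold higher. H3C7, from 0 and 0 to 3 and 11 counts, was at least 2.32-fold higher. In H3C1, with 0 and 3 counts in DMSO and 13 and 15 in dBET1, the ratio was 9.36 with a 95% counting interval of 2.89 to 48.1, and the call was lost without DMSO replicate 1 and without either dBET1 replicate. H3C12 and H3C6, both on chromosome 6, had log2 fold changes of 3.46 and 3.54. The gene model of H3C12 overlaps H2AC17, of whose windows 58.3% are shared with another gene, so that the counts of both are uncertain.

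Of the 15 H4 genes, 14 encode the same protein and only H4C7 differs. Of these genes, 11 were compared and 10 called higher, with a median log2 fold change of 2.25. H4C9 ranked 3 of all members per length in DMSO, at 187 CPM per kb, with 2392 and 2105 counts in DMSO and 3260 and 3264 in dBET1. Its log2 fold change of 0.54 ± 0.08 (SE) was the smallest of the class. H4C15, with 405 and 375 counts in DMSO and 2257 and 2342 in dBET1, and H4C14, with 398 and 372 in DMSO and 2245 and 2340 in dBET1, had log2 fold changes of 2.56 ± 0.10 and 2.57 ± 0.10 (SE). Their main transcripts are identical, so the 2 genes are one measurement. H4C11 and H4C12 also have identical coding sequences, but their counts differed (68 and 57 against 88 and 61 in DMSO). Of their windows 88.8% and 89.5% are shared with another gene, so these counts are uncertain.

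The remaining H4 genes were lower in level. H4C8 had 225 and 180 counts in DMSO and 693 and 671 in dBET1, with a log2 fold change of 1.76. H4C1, with 2 and 2 counts in DMSO and 23 and 14 in dBET1, had the largest fitted log2 fold change of the class, 3.14, and lost its call without dBET1 replicate 1. H4C2 (8 and 6 counts, then 48 and 23) lost its call at 1.69 without dBET1 replicate 1. The libraries of the groups overlapped in H4C7 (0 and 0, then 3 and 0), H4C13 (0 and 0, then 2 and 0) and H4C16 (0 and 0, then 0 and 4), and H4C6 was at 0 and 0 in DMSO and 4 and 2 in dBET1. These 4 were too low to compare.

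In order of DMSO level per length, H2BC12 (814 ± 26.9 CPM per kb, SD, n = 2), H1-2 (440 ± 59.1), H4C9 (187 ± 2.85), H2AC6 (144 ± 2.17), H2BC11 (120 ± 4.54) and H2AC25 (68.1 ± 4.72) led the family, and each of these values lay above the next by more than its spread. Among the next, H3C10 stood at 56.9, H2BC4 at 48.9, H2BC5 at 44.4 and H2AC11 at 43.0 CPM per kb, and H2BC4, H2BC5 and H2AC11 did not differ beyond their spread. The 10 leading genes made up 88.2% and 89.0% of the family's CPM in DMSO and 72.8% and 73.2% in dBET1. In DMSO, 16 of the 65 genes had at most 3 counts in each library.

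Genes with more message in DMSO were less changed. Divided into 3 parts by DMSO level per length, the compared members had 12 calls and a median log2 fold change of 1.26 in the highest part (19 genes), 18 calls and 2.57 in the middle part (18 genes), and 15 calls and 2.64 in the lowest part (18 genes). Over the 55 members, log2 DMSO level and log2 fold change had Pearson's r of −0.55 and Spearman's rho of −0.54, and over all 17971 genes tested they had −0.56 and −0.55. The points share the 4 libraries and the DMSO values enter both axes. The relation was thus of the same size in all genes. When all genes were divided into 10 groups by DMSO level, 51 of the 55 members lay above the median of their group and 44 above its upper quartile. In the lowest group, where the filter keeps a gene only through libraries in which it is higher, all genes had a median of 2.21 and the 13 members one of 3.07, of which 4 were above the upper quartile. In the 8 groups of higher level, 34 of 34 members were above the upper quartile.

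**Figure D4:**
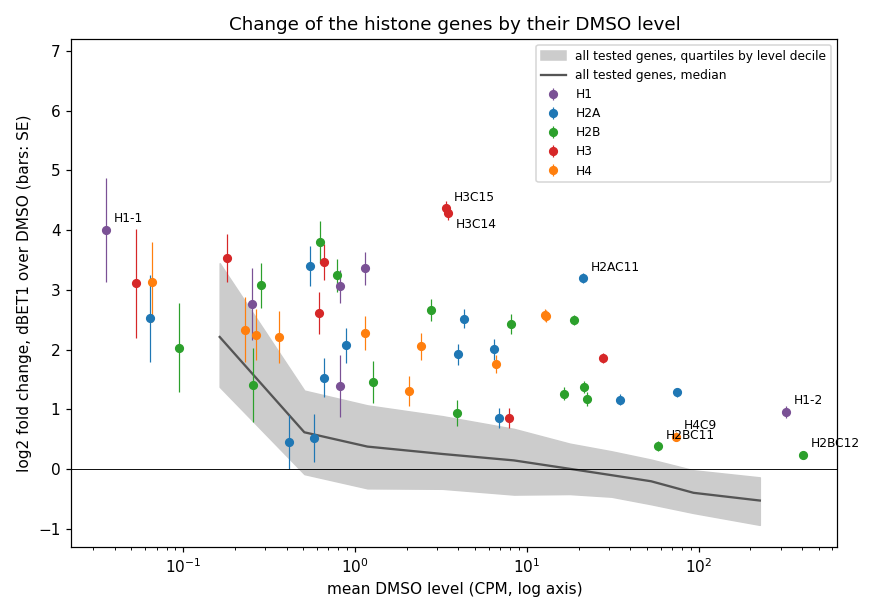
Log2 fold change, dBET1 over DMSO, against the mean DMSO level in CPM on a log axis, for the 53 compared histone genes with a DMSO count (points with standard errors, coloured by class), over the median (line) and quartiles (grey band) of all tested genes in 10 groups by level. H2BC12 and H1-2 stand at the right end at 0.24 and 0.95, and H3C14 and H3C15 at the top at 4.29 and 4.36.

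By position, the genes of chromosome 1 were 5.57-fold higher in sum and those of chromosome 6 were 1.95-fold higher. The 9 compared genes of 1q21 summed to 53.3 and 57.2 CPM in DMSO and to 425 and 411 CPM in dBET1, 7.56-fold higher, with 8 called. Their share of the family went from 4.53% and 4.72% to 15.8% and 15.6%. The chromosome 6 genes, of which 44 were compared and 35 called, summed to 1090 and 1118 CPM in DMSO and to 2179 and 2137 CPM in dBET1, 1.95-fold higher. That sum rests mostly on 2 genes of small change. In mean DMSO level, H2BC12 (log2 fold change 0.24) held 403 and H1-2 (0.95) held 321 of its 1104 CPM. By median log2 fold change the distance was smaller, at 2.57 for the 11 genes of chromosome 1 and 2.04 for those of chromosome 6. The 1q42 genes H2AC25 and H2BC26 were both called, and their sum was 2.45-fold higher. With H3C15 and H4C14 left out, each a near-identical copy of another member, the 1q21 sum was 6.96-fold higher and that of chromosome 1 was 4.82-fold higher.

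The annotation gives a span above 1000 bases to 20 members in GENCODE or RefSeq, past the usual end at the stem-loop or through further exons. Their summed level was 1.93-fold higher in dBET1 and their median log2 fold change 1.81 (18 genes), against 2.69-fold and 2.28 for the others (37 genes). The longer ones include H2BC12, H2BC11, H2AC6, H2AC25 and H3C10, and their median DMSO level was 31.2 CPM per kb of the main transcript, against 1.37 for the others. Which part of a gene the counts came from, and the part of longer messages in the result, was not tested. Members that share no window of 150 bases with another gene (39 compared, 31 called) were 1.99-fold higher in sum with a median log2 fold change of 2.28, and those with a shared window (16 compared, 14 called) 4.99-fold with a median of 2.06.

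Other genes of histone message metabolism were taken from lists, and their calls are to be read against the 16.9% of all genes called higher and the 8.54% called lower. Of the 7 genes for histone gene transcription, 0 were called in either direction, with a median log2 fold change of −0.27. NPAT went from 32.4 and 27.2 CPM in DMSO to 31.5 and 32.4 CPM in dBET1 (log2 fold change 0.10, edgeR adjusted p = 0.50). CCNE1, a cyclin that with CDK2 acts on NPAT, had a log2 fold change of −0.99 (edgeR adjusted p = 0.00071), short of the limit. CDK2 had one of −0.64 (edgeR adjusted p = 0.00043), while CCNE2, of the same list, was at −0.05 (edgeR adjusted p = 0.79). With DESeq2, CCNE1 was called lower, at −1.03. POU2F1 was at −0.55 (edgeR adjusted p = 0.0052) and HINFP at 0.51 (edgeR adjusted p = 0.0053). At the adjusted p alone, without the fold limit, 4 of the 7 were lower and 1 higher, where 27.6% and 28% of all genes were.

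Of the 12 genes of 3′ end formation, 1 was called lower, a share near that of all genes, and 0 higher. LSM10, a subunit of the U7 particle, fell from 96.2 and 108 CPM in DMSO to 45.8 and 49.0 CPM in dBET1, with a log2 fold change of −1.11 ± 0.09 (SE, edgeR adjusted p = 6.4e-05), which was −0.90 with libraries scaled by total counts. SLBP was at 225 and 224 CPM in DMSO and at 129 and 127 CPM in dBET1, with a log2 fold change of −0.81 ± 0.07 (SE, edgeR adjusted p = 6.8e-05). NCBP1, a cap-binding protein, was at −0.92 (edgeR adjusted p = 8.5e-05). LSM11 (0.07), ZNF473 (−0.14) and CASP8AP2 (0.15) had edgeR adjusted p of 0.71, 0.35 and 0.24. The median of the list was −0.16, and 0.05 with libraries scaled by total counts.

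Of the 9 genes of histone message decay, 0 were called. LSM1, of the ring that binds message ends before decapping, was at −0.98 (edgeR adjusted p = 0.00013), and with DESeq2 it was called lower, at −1.01. ERI1 went from 96.3 and 92.7 CPM in DMSO to 62.4 and 59.6 CPM in dBET1, a log2 fold change of −0.63 (edgeR adjusted p = 0.00045). EXOSC10, of the exosome, was at −0.61 (edgeR adjusted p = 0.00052). In the other direction, TUT4 was at 0.64 (edgeR adjusted p = 0.00057) and XRN1 at 0.76 (edgeR adjusted p = 0.0076). At the adjusted p alone, 4 of the 9 were lower and 2 higher, where 27.6% and 28% of all genes were. The list's median of −0.02 was 0.19 with libraries scaled by total counts.

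Of 20 histone chaperone and import genes, 3 were called lower and 0 higher, with a median log2 fold change of −0.61. Many of them were abundant, and all genes in groups 9 and 10 of the 10 groups by DMSO level had medians of −0.40 and −0.53. SSRP1, of the FACT complex, fell from 644 and 642 CPM in DMSO to 268 and 279 CPM in dBET1 (log2 fold change −1.23, edgeR adjusted p = 1.3e-05). NASP, a carrier of H1 and H3, had −1.002 (edgeR adjusted p = 2.7e-05) and lost its call at −0.995 without dBET1 replicate 2. IPO4 had −1.38, with 158 and 78.7 CPM in the DMSO libraries, and lost its call at −0.81 without DMSO replicate 1 and at −0.82 without dBET1 replicate 2. RBBP7 was at −0.92 (edgeR adjusted p = 4.2e-05), while ASF1B, a carrier of H3 and H4, was at 0.75 (edgeR adjusted p = 0.00014).

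Of 30 genes of S-phase DNA synthesis, 5 were called lower and 0 higher, against 8.54% and 16.9% of all genes, and 23 were lower at the adjusted p alone, against 27.6%. With libraries scaled by total counts, 1 of the 30 was called lower and 21 were lower at the adjusted p alone. MCM3, of the replicative helicase, fell from 550 and 538 CPM in DMSO to 226 and 230 CPM in dBET1 (log2 fold change −1.26, edgeR adjusted p = 1.3e-05). CDC45, its partner, had −1.21 (edgeR adjusted p = 1.4e-05), and PCNA, the sliding clamp, −1.02 (edgeR adjusted p = 2.3e-05). MCM7 and CDC6 were the others called, and CDC6, at −1.004, lost its call at −0.997 without DMSO replicate 1 and at −0.93 without dBET1 replicate 2. The median was −0.62, and −0.41 with libraries scaled by total counts, where the median of all genes was 0.26 in place of 0.048. The medians of the histone genes and of the S-phase genes thus lay on opposite sides of the median of all genes in these libraries. The S-phase genes were abundant, however, with mean DMSO levels from 37.5 CPM (GINS3) to 838 CPM (MCM7). In groups 9 and 10 of the 10 groups by DMSO level, all genes had medians of −0.40 and −0.53. Whether the S-phase genes fell by more than other genes of like level was not tested. These libraries hold no measure of the share of cells in S phase.

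The histone variant genes outside the clusters went in both directions. Most have polyadenylated messages made throughout the cell cycle, while that of H2AX also exists in a stem-loop form. Of 8 compared, H1-10 alone was called, and rose from 168 and 191 CPM in DMSO to 447 and 425 CPM in dBET1 (log2 fold change 1.28, edgeR adjusted p = 2.3e-05). H2AZ1, the H2A variant at promoters, was at −0.95 (edgeR adjusted p = 3.6e-05), and MACROH2A1 at −0.60 (edgeR adjusted p = 0.00027). H2AX was at 395 and 441 CPM in DMSO and 576 and 618 CPM in dBET1, a log2 fold change of 0.51 (edgeR adjusted p = 0.0012). The median of the list was −0.12, and 0.09 with libraries scaled by total counts.

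**Figure D5:**
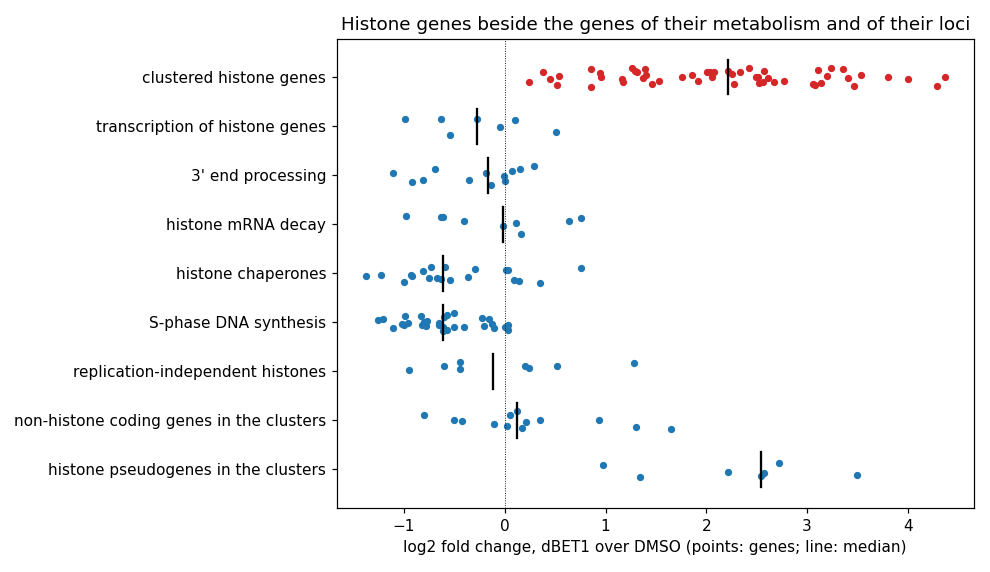
Log2 fold change, dBET1 over DMSO, of the 53 compared histone genes with a DMSO count (red) and of the compared genes of 8 lists (blue), with 1 point per gene and a line at each median. The histone genes lie above 0 throughout, as do the histone pseudogenes of the loci at a median of 2.54, while the S-phase genes have a median of −0.62.

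Non-histone genes inside the clusters were compared with the same fit. Their calls, too, are to be read against the 16.9% of all genes called higher and the 8.54% called lower. Of 13 coding genes that lie between the first and last histone gene of a cluster, 2 were called higher and 0 lower, with a median log2 fold change of 0.12. HFE, an iron regulator, rose from 2.76 and 2.78 CPM to 8.93 and 8.45 CPM (log2 fold change 1.65, edgeR adjusted p = 0.00034), and PRSS16, a thymic protease, had 1.30 (edgeR adjusted p = 0.0012). ABT1 was at −0.81 (edgeR adjusted p = 0.00027). Of all 39 genes of any kind compared within the clusters, 20 were called higher and 0 lower, with a median of 1.21, and 13 were called higher without dBET1 replicate 1. Among these 39 were genes called from 0 counts in both DMSO libraries, such as RPL23AP15 and VN1R11P, and 7 histone pseudogenes, of which 5 were called higher. H2BC20P had 17.7 and 17.0 CPM in DMSO and 115 and 115 CPM in dBET1, a log2 fold change of 2.72 (edgeR adjusted p = 2.4e-06), and H2BC19P had 2.57 (edgeR adjusted p = 2.7e-05). How counts were divided between these copies and the genes they resemble was not tested.

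The selection of RNA before sequencing is not given in the sources used here beyond the kit's name. Of 32 listed genes of small RNAs without a poly(A) tail, 30 had a row and only 5 passed the filter. The sum of the list, nearly all of it RN7SL1 and RN7SL2, was 150 and 228 CPM in DMSO and 81.2 and 97.5 CPM in dBET1. Most of these RNAs are short, and whether their length or the selection of RNA kept them low was not tested. RN7SL2 was called lower, at −1.40 (edgeR adjusted p = 0.0012), and the U1-like RNVU1-7 and RNVU1-15 were called higher from at most 3 counts in a DMSO library. The part of poly(A) selection in the histone levels was not tested.

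The label NB4 was set against lineage markers. The 5 granule genes of promyelocytes summed to 17 and 15 counts in DMSO and 55 and 25 in dBET1, with MPO at 0, 0, 22 and 10 counts and ELANE and CTSG at 0 in the 4 libraries. The 7 erythroid genes summed to 5027 and 6116 CPM in DMSO and 3084 and 3032 CPM in dBET1, with GATA1 at 207 and 236 CPM and then 154 and 160 CPM. The granule markers of the labelled line were thus nearly absent and erythroid markers present, so the line is named here only as labelled. The erythroid genes fell with dBET1 (7 of 7 at the adjusted p, against 27.6% of all genes, and 3 past the fold limit, against 8.54%), and their part in the histone result was not tested.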

How the data were processed

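RNA of 4 libraries was sequenced as paired-end reads. Per the study's methods the authors used HISAT2 (2.2.0 in the submitters' processing notes) with hg38 and then StringTie, and they deposited raw counts per gene without normalization. The counting step and its strand setting are not given in the sources used here, so overlapping genes and near-identical copies can share counts. Columns were matched to samples by group, time and replicate number, reading NC as DMSO. Of the columns 0 were left unused, and 0 rows named no gene. Symbols and coordinates came from GENCODE 44 on hg38, in which 56105 of 64252 identifiers were found. The gene models used for the counts are not given in the sources used here beyond Ensembl and may differ, which would change levels per length.

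Counts were analysed with edgeR 4.0.16 (R 4.3.3, limma 3.58.1): filterByExpr, TMM factors, group alone, quasi-likelihood test, Benjamini-Hochberg adjustment over 17971 genes. Standard errors (SE) were not fitted directly. Each is the size of the log2 fold change divided by the square root of the test's F statistic, so they are approximate. The biological coefficient of variation was 0.123. Replicates differed by more than counting error (chi-square per degree of freedom 23.6 and 8.14). Thresholds were those of the study's methods, which used DESeq2. A fold against 0 counts was set against 3 counts in each DMSO library. The steps were tested on simulated data. Exact permutation of 2 against 2 libraries cannot reach p < 0.05, so none was run.

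The members and gene lists were chosen with earlier results of these data known. Any member may be named; given in full are, per class, the 3 highest in DMSO by CPM, the largest and smallest change, all H1 genes, those at up to 3 counts in DMSO and those whose groups overlap, and of each list the 3 smallest p plus SLBP, NPAT, LSM10, LSM11, ZNF473, CASP8AP2 and ERI1. Other genes were chosen after their values were seen. Proteins were translated from GENCODE coding sequences in place of the planned RefSeq proteins. A window is a run of 150 bases of a main transcript, called shared when found in another gene's transcript. Promoters came from RefSeq (GRCh38.p14, 64 members matched). Alternatives were DESeq2 1.42.0, its size factors, total counts, no filter, 10 counts in every library, counts divided by 2, a replicate block, each library left out and no fold limit. Python 3.11.15, pandas 2.3.3 and numpy 2.4.6 were used.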

Additional observations from a re-analysis of the deposited data

How the results depend on the processing

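The number of members higher (45) ran from 34 to 49 over the other fits and was 52 without the fold limit, with 37 to 44 when a library was left out, and members lower was 0 throughout. The same replicate numbers did not pair the libraries (correlation of deviations 0.0023), and with the replicate number as a block 44 members were higher. With total counts the median log2 fold change was 2.46 over members, 2.13 for H2A, 2.25 for chromosome 6 and 2.79 for chromosome 1, the log2 ratio of sums was 1.37 (1.16 with TMM), and lower genes of histone metabolism were 2 (SSRP1 and MCM3) in place of 9 of 86. NASP, PCNA and CDC6 were also not called with 10 counts in every library or with counts divided by 2, and IPO4 was not called with DESeq2. In the other direction, CCNE1 (−1.03), LSM1 (−1.01) and MCM4 (−1.03), not called in the main fit, were called lower with DESeq2. With 10 counts in every library the medians were 1.99 over members, 2.29 for H1, 3.11 for H3, 1.60 for chromosome 6 and 2.67 for chromosome 1. DESeq2 gave 2.21 for chromosome 6. When a library was left out, the medians ran from 1.95 to 2.38 over members, 2.41 to 2.98 for H1, 1.75 to 1.88 for H2A, 1.33 to 2.33 for H2B, 3.18 to 3.91 for H3, 1.95 to 2.47 for H4, 1.82 to 2.22 for chromosome 6 and 2.49 to 2.64 for chromosome 1. In an alternative chosen after seeing the data, with H3C15 and H4C14 left out, the log2 ratio of sums was 1.09. Without a library it ran from 1.14 to 1.18, metabolism genes higher from 1 to 2 and lower from 7 to 12, and cluster neighbours higher from 13 to 19. These neighbours numbered 20, but 10 with 10 counts in every library and 13 with counts divided by 2. No member changed direction under these alternatives. The cause of these shifts was not tested, other than that a stricter filter compares fewer genes. Counts of a few reads limit the 16 genes at up to 3 counts in each DMSO library.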
